A study of Homo sapiens with 6 samples.

Results

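The genes of cholesterol and fatty acid synthesis were followed in HCT116, a human colorectal carcinoma cell line, with and without the zinc finger transcription factor *ZKSCAN3*. They comprised 34 genes, found by exact symbol among the 46427 genes of the deposited count table: 7 mevalonate enzymes, 11 sterol enzymes, 6 SREBP regulators and 10 lipogenic enzymes. Parental HCT116 cells with wild type *ZKSCAN3* (*ZK3*-WT) were compared with *ZKSCAN3* knockout HCT116 cells (*ZK3*-KO), with 3 biological replicates for each genotype. In *ZK3*-KO cells both alleles had been edited with CRISPR/Cas9 to remove the start codon in exon 1, and the line had been obtained by puromycin and single-cell selection, so it stands for 1 clone. Both lines were kept in DMEM with 10% FBS, and serum is itself a source of cholesterol and fatty acids. No age, further allele or agent is given for either group. All 34 genes passed edgeR's expression filter together with 18366 genes in total, and each had at least 688 reads in every library.

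Cells make cholesterol from acetyl-CoA through the mevalonate pathway, whose product farnesyl diphosphate is committed to sterols by squalene synthase and then converted through lanosterol to cholesterol. Fatty acids are built from the same acetyl-CoA by carboxylation, chain assembly, elongation and desaturation. Both routes are classical targets of the sterol regulatory element-binding proteins (SREBPs). These membrane-bound transcription factors are escorted by *SCAP* from the endoplasmic reticulum to the Golgi for cleavage when sterols are low, and are held back by the INSIG proteins when sterols are high. SREBP2, encoded by *SREBF2*, acts mainly on cholesterol genes, and SREBP1, encoded by *SREBF1*, mainly on fatty acid genes.

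Promoter windows from 250 bases before to 50 bases after each annotated start were taken from a RefSeq table of build GRCh38.p14, which held 43 windows for 30 of the 34 genes. *FASN*, *FDFT1*, *ACAT2* and *SQLE* had no window in that table. The windows were searched on both strands for 4 motifs, each counted separately so that matches sharing bases count under both. TCACNCCAC, the core of the classical sterol regulatory element, was found in 1 window of the 43 (2.33%), that of *SREBF2*, against 1.13% of 35116 windows of all genes. CCAAT, the letters bound by NF-Y, was found in 58.1% of the windows of these genes and in 34.6% of all windows. GGGCGG, an Sp1 motif, was found in 88.4% and 45.0% respectively, and the E-box CACGTG in 11.6% and 7.26%. The windows of all genes were not limited to genes that passed the expression filter, as all 34 did. A match is a run of letters and not a bound site. Windows of 5 genes are shown, 1 for each gene. For *HMGCS1*, with 2 windows, the one with the most matches to TCACNCCAC and CCAAT was taken. The windows shown are those of *SREBF2* with the sterol element, *HMGCS1* at the entry of the pathway, *INSIG1* in the feedback arm, and *LSS* and *TM7SF2*, the sterol enzymes with lower fitted levels in *ZK3*-KO cells. Each matched the GRCh37 genome exactly and at 1 place, given as chr5:43313465-43313764 on the minus strand for *HMGCS1* (the second of its windows is not shown), chr7:155089338-155089637 on the plus strand for *INSIG1*, chr22:42228859-42229158 on the plus strand for *SREBF2*, chr21:47648639-47648938 on the minus strand for *LSS* and chr11:64879094-64879393 on the plus strand for *TM7SF2*. They are written 5′ to 3′ on the gene's strand, and capitals mark matches to TCACNCCAC, CCAAT, which reads ATTGG where it lies on the opposite strand, and to the E-box.
HMGCS1: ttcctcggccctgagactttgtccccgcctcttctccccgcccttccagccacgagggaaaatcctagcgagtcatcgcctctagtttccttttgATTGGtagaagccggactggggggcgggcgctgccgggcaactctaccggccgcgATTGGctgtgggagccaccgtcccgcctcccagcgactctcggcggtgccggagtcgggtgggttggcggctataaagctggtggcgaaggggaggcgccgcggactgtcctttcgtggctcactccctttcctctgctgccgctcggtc
INSIG1: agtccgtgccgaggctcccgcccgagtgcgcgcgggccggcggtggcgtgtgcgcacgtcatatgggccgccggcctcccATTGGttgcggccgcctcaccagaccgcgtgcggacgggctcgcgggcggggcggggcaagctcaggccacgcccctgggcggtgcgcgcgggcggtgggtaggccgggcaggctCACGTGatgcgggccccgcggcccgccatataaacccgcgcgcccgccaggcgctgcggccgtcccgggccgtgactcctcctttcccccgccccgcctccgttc
SREBF2: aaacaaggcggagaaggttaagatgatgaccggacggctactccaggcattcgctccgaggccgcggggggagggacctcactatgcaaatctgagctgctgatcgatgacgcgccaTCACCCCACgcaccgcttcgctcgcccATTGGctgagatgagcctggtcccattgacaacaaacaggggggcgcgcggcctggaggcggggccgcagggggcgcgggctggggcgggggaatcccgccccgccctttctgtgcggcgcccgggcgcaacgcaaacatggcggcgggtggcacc
LSS: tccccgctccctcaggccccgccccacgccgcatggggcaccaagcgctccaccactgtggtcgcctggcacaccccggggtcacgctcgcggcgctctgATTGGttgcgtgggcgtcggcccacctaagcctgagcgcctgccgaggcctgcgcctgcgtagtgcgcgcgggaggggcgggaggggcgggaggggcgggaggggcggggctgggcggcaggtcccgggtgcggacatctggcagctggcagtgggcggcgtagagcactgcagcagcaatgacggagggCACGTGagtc
TM7SF2: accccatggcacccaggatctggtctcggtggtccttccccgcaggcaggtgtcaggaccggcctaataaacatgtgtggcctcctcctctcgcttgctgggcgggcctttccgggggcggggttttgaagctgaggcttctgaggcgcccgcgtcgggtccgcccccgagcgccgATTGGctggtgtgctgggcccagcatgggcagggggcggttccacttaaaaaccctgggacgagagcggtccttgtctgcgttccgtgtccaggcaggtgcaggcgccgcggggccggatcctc

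The libraries held between 60827060 and 69739215 counted reads. *ZK3*-KO replicate 3 stood apart from the other libraries. The lowest correlation with a library of the same genotype, on the log2(CPM + 1) scale, was 0.961 for *ZK3*-KO replicates 2 and 3 and 0.973 for replicate 1. It was 0.991 for every *ZK3*-WT library, where CPM is the read count scaled to library size, here after TMM normalization. The chi-square per degree of freedom between *ZK3*-KO replicate 3 and replicates 1 and 2 was 349 and 543. It was 62.4 between replicates 1 and 2. The TMM factor of *ZK3*-KO replicate 3 was 0.910, against 0.994 to 1.03 for the others. In this and all later sentences, a row of 3 values follows the replicate numbers 1, 2 and 3. *ZKSCAN3* itself, the edited gene, was at 28.1, 23.4 and 19.8 CPM in *ZK3*-WT and at 25.4, 24.9 and 13.6 CPM in *ZK3*-KO. Loss of a start codon need not lower the transcript, so this count does not check the genotype. The epithelial markers *EPCAM* (294 to 372 TPM, a level scaled by gene length and depth) and *KRT8* (1449 to 2147 TPM) were high in all 6 libraries, whereas *VIL1*, *CDX1* and *LGALS4*, 3 of the 10 colon epithelial markers, were under 1 TPM in every library. The summed level of those 10 markers was 3778 to 4838 TPM in *ZK3*-WT and 3475 to 5624 TPM in *ZK3*-KO. All 7 adipocyte or hepatocyte markers were under 1 TPM in every library, with *ADIPOQ* and *LEP* at 0, and their sum was 0.426 to 0.767 TPM in *ZK3*-WT and 0.981 to 1.21 TPM in *ZK3*-KO. Of the other marker lists, 5 of 6 lymphocyte or macrophage, 5 of 6 fibroblast and 4 of 4 endothelial genes were under 1 TPM in every library.

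Most genes of the pathway had higher counts in *ZK3*-KO than in *ZK3*-WT cells, led by the mevalonate enzymes and *FASN*, but none passed edgeR's test with all 6 libraries. The fitted log2 fold change, *ZK3*-KO against *ZK3*-WT, was positive for 30 of the 34 genes (26 of 34 in a fit to TPM), with a median of 0.55 (0.39 in TPM) beside a median of 0.02 over all tested genes (-0.08 in TPM). By edgeR's quasi-likelihood test, 0 of 34 genes passed a false discovery rate (FDR) of 0.05, while 2.05% of all tested genes did in either direction. At an unadjusted p under 0.05 there were 15 of 34 genes, all higher in *ZK3*-KO, beside 8.89% of all tested genes higher at the same limit. DESeq2 called 9 of the 34 higher at an adjusted p under 0.05, beside 3.87% of all genes it gave an adjusted p. The 9 were *MSMO1* (0.00237), *NSDHL* (0.00548), *FDFT1* (0.00575), *HSD17B7* (0.00698), *MVD* (0.00701), *IDI1* (0.0116), *FASN* (0.0258), *SQLE* (0.0354) and *FDPS* (0.0443). Limma on log2(TPM + 1) called 0, and 6 were higher at an unadjusted p under 0.05, beside 4.69% of all tested genes. In bulk RNA, a change in the share of cells of one kind and a change in the RNA per cell cannot be told apart.

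Under edgeR, *ZK3*-KO replicate 3 decided whether the genes passed. Without it, edgeR called 20 of 34 genes at an FDR of 0.05, all of them higher in *ZK3*-KO, beside 7.41% of all tested genes called higher. The median log2 fold change of all 34 genes was then 0.72. The genes called were 6 of the 7 mevalonate enzymes, 9 of the 11 sterol enzymes, *INSIG1*, and the lipogenic genes *FASN*, *SCD*, *ELOVL6* and *ACLY*. Leaving out any other single library gave 0 calls among the 34. Without *ZK3*-KO replicate 2, in contrast, the log2 fold changes of all 20 of these genes were smaller than with all 6 libraries, from 0.06 to 0.89, the median of the 34 genes was 0.37, and the lowest FDR among the 34 was 0.151. The value was over 1.5 times smaller for 10 of the 20. These were *ACAT2* (0.45), *MVK* (0.53), *CYP51A1* (0.35), *EBP* (0.41), *SC5D* (0.11), *DHCR7* (0.32), *INSIG1* (0.57), *ACLY* (0.06), *ELOVL6* (0.44) and *SCD* (0.32). Because replicate 3 was left out in view of its distance from the others, the count without it is a value conditional on that choice.

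**Figure D1:**
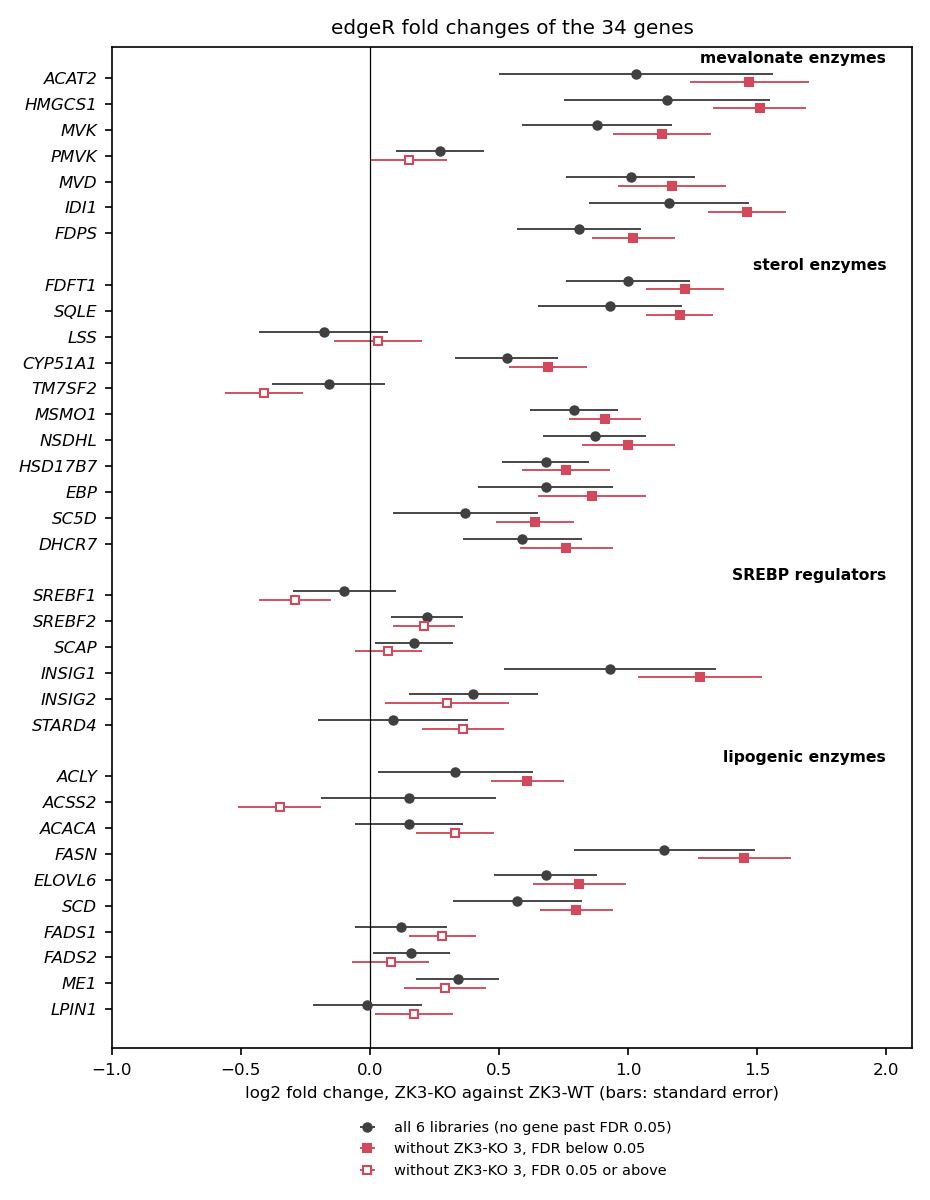
Log2 fold change (x axis, *ZK3*-KO against *ZK3*-WT, edgeR) of the 34 genes (y axis, by branch), with bars for the standard error, from all 6 libraries (grey) and without *ZK3*-KO replicate 3 (red, filled where the FDR is below 0.05). The grey values run from -0.18 for *LSS* to 1.16 for *IDI1* with none past an FDR of 0.05, and 20 of the red ones are filled.

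By library, the order within *ZK3*-KO was often the same from gene to gene. In 24 of the 34 genes replicate 2 was the highest and replicate 3 the lowest of the *ZK3*-KO libraries, and in 25 genes replicates 1 and 2 were both above all *ZK3*-WT libraries. Of those 25 genes, 11 had replicate 3 within or below the range of *ZK3*-WT. The share of all tested genes with these orders was not counted, so they are not shown to be particular to the pathway. Replicate 1 was above all *ZK3*-WT libraries in 26 of 34 genes (32.7% of all tested genes), replicate 2 in 29 (34.3%) and replicate 3 in 21 (38.1%). The share for replicate 3 was thus nearer to its background, and it depended on the scaling: 13 of 34 genes with library totals in place of TMM, beside 27.5% of all tested genes, and 6 of 34 in TPM, where 19.6% of all tested genes lay above all *ZK3*-WT libraries. In TPM, 14 of the 34 genes were below every *ZK3*-WT library in replicate 3, beside 56.9% of all tested genes. The median of the 34 genes in replicate 3, relative to the *ZK3*-WT mean on the log2 scale, was 0.24 with TMM, 0.06 with library totals and -0.08 in TPM, beside medians of 0.01, -0.17 and -0.21 over all tested genes. In replicates 1 and 2 the TMM medians were 0.50 and 0.82 and those in TPM were 0.50 and 0.78, so that scaling moved them little. Every *ZK3*-KO library exceeded every *ZK3*-WT library for 14 of 34 genes with TMM, beside 12.7% of all tested genes. With library totals 7 of these stayed apart, beside 8.84% of all tested genes, and *IDI1*, *MVK*, *PMVK*, *FDPS*, *SQLE*, *CYP51A1* and *DHCR7* overlapped. In TPM there were 3 (*MVK*, *MSMO1* and *NSDHL*), beside 6.83%.

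**Figure D2:**
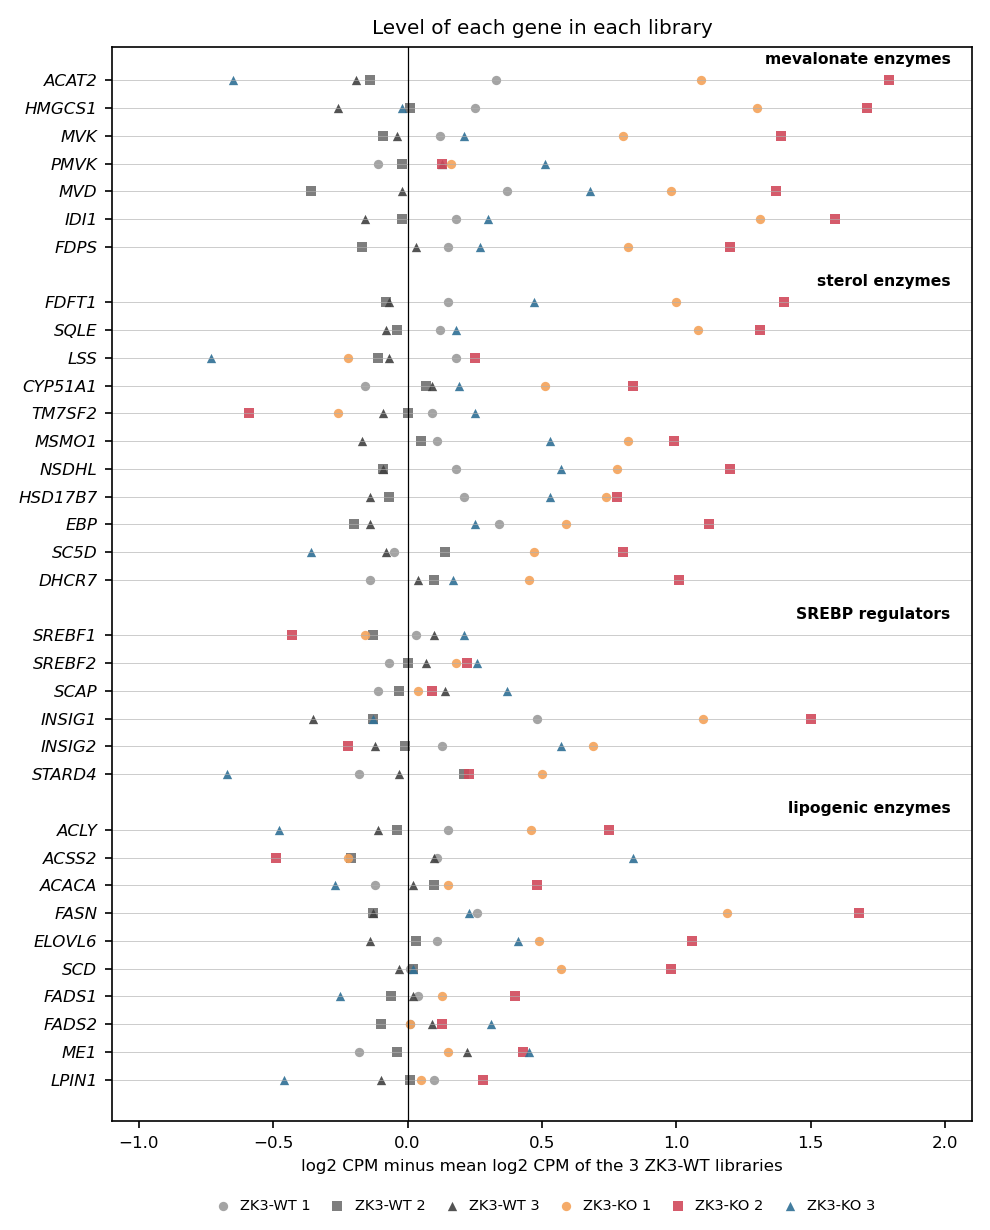
Level of each of the 34 genes (y axis) in each library, as log2 CPM minus the mean of the 3 *ZK3*-WT libraries (x axis), with 1 marker per library, grey for *ZK3*-WT and coloured for *ZK3*-KO. *ZK3*-KO replicate 2 is the highest library for 24 genes, while *ZK3*-KO replicate 3 lies within or below the *ZK3*-WT range for 13 genes under TMM normalization.

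The proliferation genes, a list of 15 set beside the pathway because the replicates differed in it, moved with the same libraries in part. On the log2 scale their median, set against the mean of *ZK3*-WT, was 0.35, -0.22 and -0.11 in *ZK3*-WT but 0.75, 1.16 and -0.53 in *ZK3*-KO. The median log2 fold change of this list was 0.56 in the fit to all 6 libraries. Of its 15 genes, 0 passed an edgeR FDR of 0.05 there, beside 2.05% of all tested genes in either direction. In the fit that left out *ZK3*-KO replicate 3, the median was 0.91. At the same FDR, 13 of the 15 were then called higher in *ZK3*-KO, beside 7.41% of all tested genes. Because the list was chosen for its difference between replicates, this count follows in part from that choice and is not independent support. In *ZK3*-KO replicate 3 the proliferation genes were below the *ZK3*-WT mean at the median whereas the mevalonate enzymes were 0.27 above it (0.01 above it in TPM). The part of growth state in the values of the pathway genes was not tested.

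**Figure D3:**
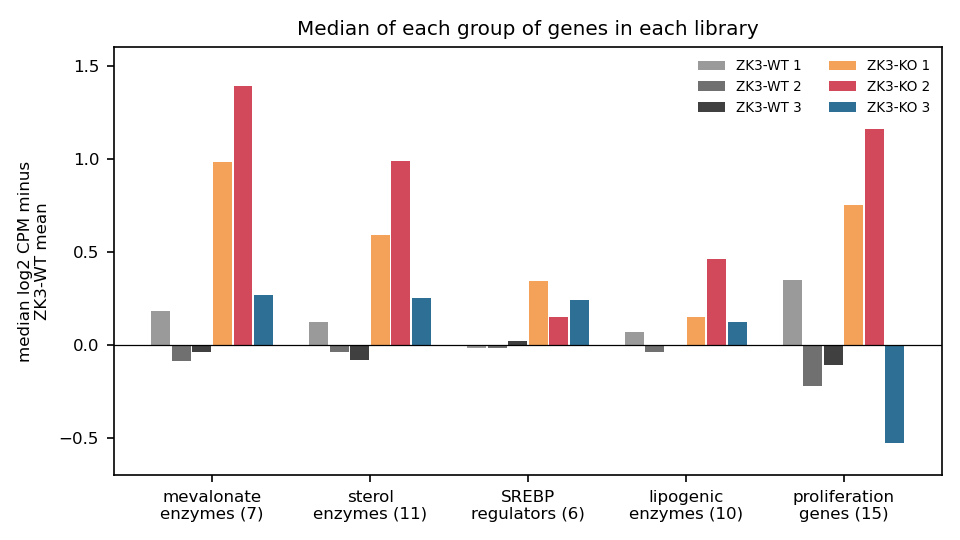
Median log2 CPM minus the *ZK3*-WT mean (y axis) for the 4 branches and for 15 proliferation genes (x axis, number of genes in parentheses), with 1 bar for each library. The mevalonate enzymes reach 1.39 in *ZK3*-KO replicate 2 and 0.27 in *ZK3*-KO replicate 3, where the proliferation genes are at -0.53.

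The mevalonate enzymes, which carry acetyl-CoA to farnesyl diphosphate, had the largest median fold change of the 4 branches. All 7 had positive log2 fold changes, from 0.27 to 1.16 with a median of 1.01 (0.57 without *ZK3*-KO replicate 2 and 0.66 in TPM). An unadjusted edgeR p under 0.05 was found for 5 of the 7, beside 8.89% of all tested genes higher at this limit. The branch median relative to *ZK3*-WT was 0.98, 1.39 and 0.27 in *ZK3*-KO. *HMGCS1*, which joins acetoacetyl-CoA and acetyl-CoA into HMG-CoA, was at 69.7, 59.0 and 48.8 CPM in *ZK3*-WT and at 144, 192 and 57.7 CPM in *ZK3*-KO. The first pair of *ZK3*-KO libraries were far above every *ZK3*-WT library, but replicate 3 lay among them. The log2 fold change was 1.15 (SE 0.40, edgeR FDR 0.197), and it was 1.51 (FDR 0.00192) without replicate 3. *IDI1*, the isomerase that makes dimethylallyl diphosphate, was at 42.0, 36.7 and 33.2 CPM in *ZK3*-WT and at 92.4, 112 and 45.8 CPM in *ZK3*-KO. With TMM the groups did not overlap, although replicate 3 was close to the highest *ZK3*-WT library. The log2 fold change was 1.16 (SE 0.31, edgeR FDR 0.117; 1.46 and FDR 0.00106 without replicate 3).

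*MVD*, the decarboxylase that makes isopentenyl diphosphate, was at 52.7, 31.8 and 40.2 CPM in *ZK3*-WT and at 80.4, 105 and 65.0 CPM in *ZK3*-KO. All *ZK3*-KO libraries were above all *ZK3*-WT libraries, with library totals as well but not in TPM. The log2 fold change was 1.01 (SE 0.25, edgeR FDR 0.0950; 1.17 and FDR 0.00991 without replicate 3). *FDPS*, which makes farnesyl diphosphate and had the most transcripts of this branch per length, was at 93.0, 74.3 and 85.4 CPM in *ZK3*-WT and at 148, 192 and 101 CPM in *ZK3*-KO. The groups were apart by a narrow margin at replicate 3, and the log2 fold change was 0.81 (SE 0.24, edgeR FDR 0.149; 1.02 and FDR 0.00504 without it). *MVK*, mevalonate kinase, was at 14.3, 12.3 and 12.8 CPM in *ZK3*-WT and at 22.9, 34.4 and 15.2 CPM in *ZK3*-KO. Replicate 3 was again the nearest to *ZK3*-WT, and the log2 fold change was 0.88 (SE 0.29, edgeR FDR 0.175; 1.13 and FDR 0.00817 without it). *ACAT2*, which makes acetoacetyl-CoA and is described here after its values were seen, was at 22.5, 16.2 and 15.6 CPM in *ZK3*-WT and at 37.9, 61.8 and 11.4 CPM in *ZK3*-KO. It had the widest spread of the branch, with replicate 3 below and replicates 1 and 2 above all *ZK3*-WT libraries, and its log2 fold change was 1.03 (SE 0.53, edgeR FDR 0.350; 1.47 and FDR 0.00602 without replicate 3, but 0.45 and FDR 0.674 without replicate 2). *PMVK*, the kinase after *MVK*, was the exception, with a log2 fold change of 0.27 (SE 0.17, edgeR FDR 0.432) and of 0.15 (FDR 0.536) without replicate 3.

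Of the 11 sterol enzymes, which turn farnesyl diphosphate into cholesterol, 9 had positive and 2 had negative log2 fold changes, with a median of 0.68 (0.41 without *ZK3*-KO replicate 2). An unadjusted edgeR p under 0.05 was found for 8, all higher in *ZK3*-KO, beside 8.89% of all tested genes higher at this limit. Relative to *ZK3*-WT the branch median was 0.59, 0.99 and 0.25 in *ZK3*-KO. *FDFT1*, squalene synthase, which commits the pathway to sterols, was at 99.2, 84.3 and 84.9 CPM in *ZK3*-WT and at 178, 235 and 123 CPM in *ZK3*-KO. Every *ZK3*-KO library was above every *ZK3*-WT library, with library totals as well but not in TPM. The log2 fold change was 1.00 (SE 0.24, edgeR FDR 0.0905; 1.22 and FDR 0.00244 without replicate 3). *SQLE*, squalene epoxidase, was at 63.2, 56.4 and 54.9 CPM in *ZK3*-WT and at 123, 144 and 65.8 CPM in *ZK3*-KO. Replicate 3 was just above the *ZK3*-WT range, and the log2 fold change was 0.93 (SE 0.28, edgeR FDR 0.146; 1.20 and FDR 0.00140 without it).

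*MSMO1*, the methylsterol oxidase that begins removal of the methyl groups at carbon 4, came nearest to the threshold. It was at 42.6, 40.9 and 35.0 CPM in *ZK3*-WT and at 69.7, 78.4 and 57.0 CPM in *ZK3*-KO, and the groups did not overlap with TMM, with library totals or in TPM. The log2 fold change was 0.79 (SE 0.17, edgeR FDR 0.0659), and with the replicate number as a block it was 0.78 (FDR 0.0480). It was called in 3 of 13 alternatives, and without replicate 3 its log2 fold change was 0.91 (FDR 0.00581). *NSDHL*, the sterol dehydrogenase that acts in the same demethylation, was at 16.8, 13.8 and 13.9 CPM in *ZK3*-WT and at 25.3, 33.9 and 22.0 CPM in *ZK3*-KO. These groups were also apart in all 3 scalings, and the log2 fold change was 0.87 (SE 0.20, edgeR FDR 0.0855; 1.00 and FDR 0.00908 without replicate 3). *HSD17B7*, the ketosteroid reductase that follows, was at 12.5, 10.3 and 9.84 CPM in *ZK3*-WT and at 18.1, 18.6 and 15.7 CPM in *ZK3*-KO. The 3 *ZK3*-KO libraries were closer together here than in the genes above, and the log2 fold change was 0.68 (SE 0.17, edgeR FDR 0.100; 0.76 and FDR 0.0194 without replicate 3).

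*CYP51A1*, the lanosterol demethylase, was at 97.6, 115 and 116 CPM in *ZK3*-WT and at 155, 196 and 124 CPM in *ZK3*-KO. The groups did not overlap with TMM, but they did with library totals, and the log2 fold change was 0.53 (SE 0.20, edgeR FDR 0.213; 0.69 and FDR 0.0201 without replicate 3). *DHCR7*, which makes cholesterol from its last precursor, 7-dehydrocholesterol, was at 74.3, 87.7 and 83.8 CPM in *ZK3*-WT and at 112, 165 and 92.2 CPM in *ZK3*-KO. Only replicate 3 was near *ZK3*-WT, and the log2 fold change was 0.59 (SE 0.23, edgeR FDR 0.234; 0.76 and FDR 0.0240 without it). *EBP*, the sterol isomerase, was at 34.8, 23.9 and 25.0 CPM in *ZK3*-WT and at 41.3, 59.7 and 32.7 CPM in *ZK3*-KO, so that replicate 3 was below *ZK3*-WT replicate 1. Its log2 fold change was 0.68 (SE 0.26, edgeR FDR 0.227; 0.86 and FDR 0.0270 without replicate 3). *SC5D*, the desaturase before *DHCR7*, had a log2 fold change of 0.37 (SE 0.28, edgeR FDR 0.518; 0.64 and FDR 0.0249 without replicate 3).

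The 2 remaining sterol enzymes, described in full after their values were seen, had negative fold changes with all 6 libraries. *LSS*, which cyclizes squalene epoxide to lanosterol, was at 92.5, 75.7 and 77.8 CPM in *ZK3*-WT and at 70.0, 97.0 and 49.4 CPM in *ZK3*-KO. Within *ZK3*-KO it had the common order, with replicate 2 highest and replicate 3 lowest, but replicates 1 and 3 were below every *ZK3*-WT library. Its log2 fold change of -0.18 (SE 0.25, edgeR FDR 0.741) became 0.03 (FDR 0.915) without replicate 3. *LSS* lies on chromosome 21, where the median log2 fold change of 140 tested genes was -0.39, and the part of that shift in its value was not tested. *TM7SF2*, a sterol reductase of the endoplasmic reticulum, was at 37.1, 34.8 and 32.7 CPM in *ZK3*-WT and at 29.1, 23.1 and 41.6 CPM in *ZK3*-KO. With TMM both replicates 1 and 2 were below and replicate 3 above all *ZK3*-WT libraries. In TPM replicate 3, at 40.6, lay within the *ZK3*-WT range of 40.3 to 45.0. The log2 fold change was -0.16 (SE 0.22, edgeR FDR 0.758; -0.41 and FDR 0.102 without replicate 3). The promoter windows of both, printed above, hold CCAAT, as does the printed window of *HMGCS1*, which was chosen by its motif matches. CCAAT was found in 34.6% of all windows.

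The SREBP regulators had smaller values. Their median log2 fold change was 0.20, and 0 of 6 had an unadjusted edgeR p under 0.05, beside 8.89% of all tested genes higher at this limit. *INSIG1*, an SREBP target that retains *SCAP* in the endoplasmic reticulum, had the largest fold change and the pattern of the mevalonate enzymes. It was at 43.0, 28.1 and 24.1 CPM in *ZK3*-WT and at 66.0, 87.1 and 28.1 CPM in *ZK3*-KO. Both replicates 1 and 2 were above *ZK3*-WT and replicate 3 was among its libraries, with a log2 fold change of 0.93 (SE 0.41, edgeR FDR 0.284; 1.28 and FDR 0.0109 without replicate 3). *INSIG2*, the related retention protein, was at 20.5, 18.7 and 17.3 CPM in *ZK3*-WT and at 30.3, 16.1 and 27.9 CPM in *ZK3*-KO. Here replicate 2 was the lowest of all libraries, and the log2 fold change was 0.40 (SE 0.25, edgeR FDR 0.441).

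The transcription factors themselves differed little. *SREBF2* was at 249, 262 and 275 CPM in *ZK3*-WT and at 297, 304 and 314 CPM in *ZK3*-KO. Its groups did not overlap with TMM or with library totals, but they did in TPM, and the log2 fold change was 0.22 (SE 0.14, edgeR FDR 0.431; 0.21 and FDR 0.275 without replicate 3). *SREBF1* was at 307, 276 and 323 CPM in *ZK3*-WT and at 270, 223 and 349 CPM in *ZK3*-KO. With TMM it was lowest in *ZK3*-KO replicate 2 and highest in replicate 3, an order within *ZK3*-KO opposite to that of *FASN*. In TPM it was at 155, 143 and 164 in *ZK3*-WT and at 137, 110 and 140 in *ZK3*-KO, so that replicate 3 was below every *ZK3*-WT library. Its log2 fold change was -0.10 (SE 0.20, edgeR FDR 0.817; -0.29 and FDR 0.189 without replicate 3). *SCAP*, the escort protein, was at 74.1, 78.5 and 88.4 CPM in *ZK3*-WT and at 82.4, 85.3 and 103 CPM in *ZK3*-KO. Its groups overlapped, and its log2 fold change was 0.17 (SE 0.15, edgeR FDR 0.607). *STARD4*, a sterol carrier protein, had a log2 fold change of 0.09 (SE 0.29, edgeR FDR 0.902).

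Among the 10 lipogenic enzymes the median log2 fold change was 0.24 (0.07 in TPM). Of these, *FASN* and *ELOVL6* had an unadjusted edgeR p under 0.05, beside 8.89% of all tested genes higher at this limit. *FASN*, fatty acid synthase, was at 851, 652 and 653 CPM in *ZK3*-WT and at 1625, 2285 and 835 CPM in *ZK3*-KO. Replicate 3 lay within the *ZK3*-WT range, and the other *ZK3*-KO libraries were far above it. The log2 fold change was 1.14 (SE 0.35, edgeR FDR 0.156; 1.45 and FDR 0.00199 without replicate 3). *SCD*, the stearoyl-CoA desaturase, was at 1611, 1627 and 1572 CPM in *ZK3*-WT and at 2375, 3171 and 1620 CPM in *ZK3*-KO. The *ZK3*-WT libraries were nearly equal and *ZK3*-KO replicate 3 lay among them, with a log2 fold change of 0.57 (SE 0.25, edgeR FDR 0.278; 0.80 and FDR 0.00865 without replicate 3). *ELOVL6*, which lengthens palmitate, was at 70.1, 66.3 and 58.8 CPM in *ZK3*-WT and at 91.0, 135 and 86.1 CPM in *ZK3*-KO. Its groups did not overlap with TMM or library totals, but they did in TPM. Its log2 fold change was 0.68 (SE 0.20, edgeR FDR 0.149; 0.81 and FDR 0.0203 without replicate 3).

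The enzymes that supply and start fatty acid synthesis differed less. *ACLY*, which cleaves citrate to cytosolic acetyl-CoA, had a log2 fold change of 0.33 (SE 0.30, edgeR FDR 0.611; 0.61 and FDR 0.0224 without replicate 3, but 0.06 and FDR 0.942 without replicate 2). *ACACA*, acetyl-CoA carboxylase, had 0.15 (SE 0.21, edgeR FDR 0.758; -0.01 in TPM). *ACSS2*, which makes acetyl-CoA from acetate, was at 57.0, 45.5 and 56.7 CPM in *ZK3*-WT and at 45.4, 37.6 and 94.2 CPM in *ZK3*-KO, values given after they were seen. Replicate 3 was far above the rest and replicates 1 and 2 below all *ZK3*-WT libraries, so that the log2 fold change of 0.15 (SE 0.34, edgeR FDR 0.845) turned to -0.35 (FDR 0.164) without replicate 3 and was -0.07 in TPM. *ME1*, the malic enzyme that yields NADPH, had 0.34 (SE 0.16, edgeR FDR 0.327). The desaturases *FADS1* and *FADS2* had log2 fold changes of 0.12 (edgeR FDR 0.778; -0.03 in TPM) and 0.16 (edgeR FDR 0.634), and *LPIN1*, a phosphatidate phosphatase, had -0.01 (edgeR FDR 0.984).

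Compared per length, the pathway was dominated by a few abundant transcripts. In *ZK3*-WT the highest mean levels were those of *SCD* at 646 TPM ± 22.7 (SD, n = 3), *FASN* at 179 ± 26.2, *ACLY* at 156 ± 13.7, *SREBF1* at 154 ± 10.6 and *FDPS* at 139 ± 13.2. *SCD* was clear of the rest, whereas *FASN*, *ACLY* and *SREBF1* lay within their spread of each other, as did *SREBF1* and *FDPS*. The lowest were *MVK* at 10.9 ± 0.213 and *LPIN1* at 10.8 ± 0.756, which did not differ beyond their spread. In *ZK3*-KO the level of *SCD* was 906 TPM ± 372 and that of *FASN* 376 ± 200, with the larger SD set by the distance between replicates 2 and 3. The 34 genes together summed to 2460, 2360 and 2314 TPM in *ZK3*-WT and to 3515, 4444 and 2075 TPM in *ZK3*-KO, or 0.246%, 0.236% and 0.231% of all TPM against 0.352%, 0.444% and 0.208%. On this scale *ZK3*-KO replicates 1 and 2 were above and replicate 3 below every *ZK3*-WT library. *FASN* and *SCD* alone made up 849, 838 and 789 TPM in *ZK3*-WT and 1343, 1821 and 682 TPM in *ZK3*-KO.

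**Figure D4:**
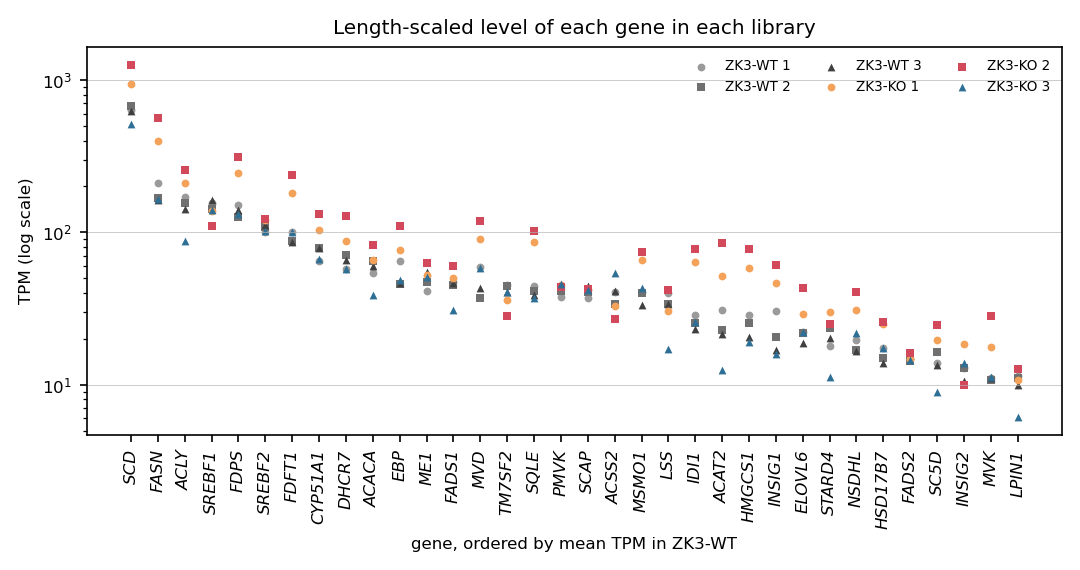
TPM of each gene in each library (y axis, log scale), with genes ordered by their mean in *ZK3*-WT (x axis) and 1 marker per library. *SCD* and *FASN* have the highest *ZK3*-WT means, at 646 and 179 TPM, and for both the libraries of *ZK3*-KO replicates 1 and 2 are the highest.

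Further lists covered neighbouring steps in 7 sets. Over all tested genes, 2.05% passed an edgeR FDR of 0.05 in either direction, and the counts of each list stand beside that share. Of the 10 genes for SREBP cleavage and turnover, 0 passed an edgeR FDR of 0.05 and the median log2 fold change was 0.05. The lowest p-values belonged to 2 genes whose products extract ubiquitinated proteins from the membrane, *VCP* (log2 fold change 0.63, edgeR FDR 0.146; FDR 0.0164 without *ZK3*-KO replicate 3) and *UFD1* (0.63, edgeR FDR 0.179; FDR 0.00824 without it). DESeq2 called *VCP* as well (adjusted p 0.0359). Of 14 genes of the isoprenoid branch, which uses farnesyl diphosphate for purposes other than sterols, 1 passed, with a median of 0.08. *FNTB*, the beta subunit of farnesyltransferase, was at 29.5, 22.7 and 19.6 CPM in *ZK3*-WT and at 53.3, 49.1 and 43.4 CPM in *ZK3*-KO. All *ZK3*-KO libraries were clearly above *ZK3*-WT, with a log2 fold change of 1.02 (SE 0.19, edgeR FDR 0.0457). The call was lost in 9 of 13 alternatives, among them without *ZK3*-WT replicate 1 (FDR 0.0729), 2 (FDR 0.244) or 3 (FDR 0.213) and without *ZK3*-KO replicate 1 (FDR 0.164) or 2 (FDR 0.106). *FNTB* lies on chromosome 14, where the median of 502 tested genes was 0.52, and the part of that shift was not tested.

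Of 15 tested genes of sterol uptake, transport and esterification, 1 passed, in the lower direction, and the median was -0.04. *ABCG1*, a cholesterol exporter, was at 18.7, 16.8 and 16.7 CPM in *ZK3*-WT and at 3.40, 1.77 and 3.96 CPM in *ZK3*-KO. Every *ZK3*-KO library was several-fold below every *ZK3*-WT library, with a log2 fold change of -2.51 (SE 0.31, edgeR FDR 0.0112). The FDR rose above 0.05, so that the call was lost, without *ZK3*-WT replicate 1 (0.0650), 2 (0.0762) or 3 (0.0609) or *ZK3*-KO replicate 1 (0.0679). The log2 fold change stayed between -2.24 and -2.74 in all 6 fits without 1 library. *ABCG1* lies on chromosome 21 like *LSS*, where the median was -0.39. *TMEM97*, a sterol-regulated membrane protein named after its value was seen, had a log2 fold change of 1.11 (edgeR FDR 0.279; 1.53 and FDR 0.00383 without *ZK3*-KO replicate 3). In the fit without that replicate, 2 genes of this list were called higher, beside 7.41% of all tested genes. Another 2 were called lower, *ABCG1* and *MYLIP* (-0.70, edgeR FDR 0.0369), beside 1459 of all 18872 tested genes.

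Of 15 tested genes of fatty acid elongation and activation, 1 passed and the median was 0.21. *ACSL5*, an acyl-CoA synthetase, was at 95.4, 177 and 129 CPM in *ZK3*-WT and at 352, 335 and 470 CPM in *ZK3*-KO. Here *ZK3*-KO replicate 3 was the highest library, unlike in most genes above, and the log2 fold change was 1.52 (SE 0.26, edgeR FDR 0.0358). The FDR rose above 0.05, so that the call was lost, without *ZK3*-WT replicate 1 (0.115), 2 (0.0847) or 3 (0.187) and without *ZK3*-KO replicate 1 (0.120) or 2 (0.0639). Among 14 glycerolipid and lipid droplet genes 0 passed and the median was 0.07. *PLIN2*, a coat protein of lipid droplets, was at 16.9, 16.7 and 18.3 CPM in *ZK3*-WT and at 28.2, 30.6 and 46.3 CPM in *ZK3*-KO. The groups were well apart and replicate 3 was again the highest, with a log2 fold change of 1.02 (edgeR FDR 0.0638), which was 0.98 (FDR 0.0445) with the replicate number as a block and 0.77 (FDR 0.0109) without replicate 3. DESeq2 also called it (adjusted p 0.00114). *LIPE*, a lipase of the same list, had 0.97 (edgeR FDR 0.213; FDR 0.0257 without replicate 3).

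Of 12 tested genes that supply citrate and NADPH 0 passed, with a median of 0.22, and the lowest p-values were those of the malate dehydrogenase *MDH1* (0.57, edgeR FDR 0.196; FDR 0.0184 without *ZK3*-KO replicate 3) and the malic enzyme *ME2* (0.39, edgeR FDR 0.264; FDR 0.0218 without it). Of 17 tested genes of fatty acid oxidation 0 passed, with a median of 0.27. *CPT2*, a carnitine palmitoyltransferase, had 0.51 (edgeR FDR 0.136; FDR 0.0448 without replicate 3), and *PPARA*, a nuclear receptor that drives oxidation genes, had -0.49 (edgeR FDR 0.150; FDR 0.0365 without replicate 3). DESeq2 called both, at adjusted p-values of 0.0238 and 0.0460.

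Some of the 34 genes share sequence with others, and how the authors' counting treated strand and multiple matches is not given in the sources used here. Exons of *ACAT2*, *MVK*, *IDI1*, *FDPS*, *CYP51A1*, *SREBF1*, *SREBF2*, *STARD4*, *FADS1* and *FADS2* overlap a gene on the other strand in the GRCh37 annotation. *IDI1*, *FDPS*, *CYP51A1*, *HSD17B7* and *SCD* have pseudogenes listed under their names in the table. Values of these genes are uncertain to that extent. The most abundant genes lie at chr10:102106990-102124583 (*SCD*, plus strand), chr17:80036214-80056170 (*FASN*, minus strand) and chr17:40023170-40086795 (*ACLY*, minus strand) in GRCh37, *HMGCS1* lies at chr5:43287572-43313614 (minus strand) and *MSMO1* at chr4:166248819-166264316 (plus strand).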

How the data were processed

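RNA was sequenced by the authors from 3 *ZK3*-WT and 3 *ZK3*-KO samples as paired-end TruSeq Stranded mRNA libraries. The study's methods name quantification in Partek Flow against hg19 with an Ensembl annotation, and the submitters' processing notes name Bowtie2 2.2.5, whereas NCBI identifiers with RefSeq transcripts stand in the table. The authors deposited read counts for each gene without normalization, and TPM values, which they scaled by length and depth and which were used for levels and 1 alternative. The deposited FPKM values were not used. Rows that name no gene numbered 0.

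The 34 genes and all lists were chosen with earlier results of these data known. In R 4.3.3, edgeR 4.0.16 (filterByExpr, TMM, quasi-likelihood test, genotype as the only factor, all 6 libraries) tested 18366 genes, with Benjamini-Hochberg adjustment over all of them and a threshold of 0.05. A test without *ZK3*-KO replicate 3 covered 18872 genes. Alternatives were library totals, upper-quartile factors, DESeq2 1.42.0, a filter of 1 read or more in total, a filter of 10 reads or more per library, limma 3.58.1 on log2(TPM + 1), the replicate number as a block, and each library left out in turn. The study modelled TPM values by analysis of variance. Here the count test was the main test because counts were deposited. Pairs of replicates differed by more than sampling noise, with a chi-square per degree of freedom of at least 41.5. The scripts were tested on simulated counts. P-values measure the spread between replicates of 1 clone and its parental line.

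Values in every library are given for genes with an unadjusted p under 0.05, for the 2 genes with the largest change and the one with the highest TPM in each branch, and for *SREBF1*, *SREBF2*, *SCAP*, *INSIG1* and *INSIG2*. From other lists, genes past the threshold or else the 2 with the lowest p are named, and others are marked as chosen after their values were seen. Same-numbered libraries shared part of their deviation from the genotype mean for numbers 1 and 3, with correlations over genes of 0.473 and 0.616. For number 2 the value was 0.124, below the 0.289 between *ZK3*-WT replicate 1 and *ZK3*-KO replicate 2. Between different numbers it ran from -0.573 to 0.289. Deviations from a mean cancel out within each genotype, so negative values between different numbers are partly built in. What a number marks is not given in the sources used here. Gene positions came from a GRCh37 annotation (GENCODE) and promoter windows from RefSeq. A promoter motif was sought as exact letters on both strands.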

Additional observations from a re-analysis of the deposited data

How the results depend on the processing

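Library totals, upper-quartile factors, a filter of 1 read in total or of 10 reads per library, and limma on log2(TPM + 1) each left 0 of the 34 genes past an FDR of 0.05. DESeq2 called 9, the fit with the replicate block called 1 (*MSMO1*), and fits without 1 library called from 0 to 20, the 20 being without *ZK3*-KO replicate 3 and 0 in each of the other 5. DESeq2 called 1506 genes in all, against 376 by edgeR, and fits without 1 library called from 49 to 158, or 2858 without *ZK3*-KO replicate 3. Fits without 1 library gave a median log2 fold change from 0.57 to 1.21 for the mevalonate enzymes, from 0.41 to 0.79 for the sterol enzymes, from 0.15 to 0.26 for the SREBP regulators and from 0.23 to 0.31 for the lipogenic enzymes. The SREBP regulators moved to 0.11 with library totals and to 0.07 in TPM, where the lipogenic enzymes were at 0.07, the mevalonate enzymes at 0.66, the sterol enzymes at 0.52 and the median of all genes at -0.08. The block changed no other call among the 34 genes. A sign turned in small, uncalled values only: in TPM for *STARD4* (0.00 after rounding), *ACSS2* (-0.07), *ACACA* (-0.01) and *FADS1* (-0.03), and in fits without 1 library for *LSS* (from -0.46 to 0.03), *TM7SF2* (from -0.41 to 0.02), *SREBF1* (from -0.29 to 0.04), *STARD4* (from -0.15 to 0.36), *ACSS2* (from -0.35 to 0.40), *ACACA* (from -0.05 to 0.33), *FADS1* (from -0.05 to 0.28), *LPIN1* (from -0.18 to 0.17) and *ZKSCAN3* (from -0.29 to 0.09). The cause was not tested. Each of the 34 genes had 688 reads or more in every library. Replicates of a genotype differed by more than sampling noise, and what made them differ was not tested.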

Other observations

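*GPAM*, a glycerol-3-phosphate acyltransferase and a lipogenic SREBP target outside the 34 genes, followed the order of *FASN*. It was at 35.2, 38.2 and 33.7 CPM in *ZK3*-WT and at 65.0, 84.8 and 32.8 CPM in *ZK3*-KO, in the order of the replicates. *ZK3*-KO replicate 3 lay just below the *ZK3*-WT libraries. The log2 fold change was 0.77 (edgeR FDR 0.255), and it was 1.07 (FDR 0.00401) without *ZK3*-KO replicate 3. *GPAM* was chosen after its values were seen. Of its list of 14 glycerolipid and lipid droplet genes, 3 were called higher without *ZK3*-KO replicate 3, beside 7.41% of all tested genes. Another 2 were called lower in that fit, *DGAT2* (-1.17, edgeR FDR 0.0177) and *MGLL* (-1.25, edgeR FDR 0.0159), beside 1459 of all 18872 tested genes.

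Among all 6 libraries, the highest level of a gene of the pathway was in *ZK3*-KO replicate 2 for 24 genes, in replicate 3 for 8 and in replicate 1 for 2, and in no *ZK3*-WT library under TMM normalization. These counts were not made over all tested genes. The 8 genes highest in replicate 3 of the *ZK3*-KO libraries included *SREBF1*, *ACSS2* and *TM7SF2*, whose levels in replicates 1 and 2 were below every *ZK3*-WT library.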
